A study of Homo sapiens with 3 samples.

Results

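Of the 20907 peaks that an eCLIP of mouse PXR gave on chromosomes 1 to 22 and X of human LS174T cells, 501 had their centre in no gene span of any class (2.40%, Wilson interval 2.20 to 2.61%). They were chosen by position alone: the midpoint of each peak was set against all gene spans of NCBI RefSeq GRCh38.p14, which shares its coordinates with the hg38 build of the peaks, and fold, depth and width played no part. The series held 1 input library and 2 replicates of the PXR immunoprecipitate, all from LS174T, a colon adenocarcinoma line. All cells had been transfected for 24 h with HA-tagged mouse Pxr and irradiated at 254 nm with 400 mJ/cm2, so the receptor studied came from a transient transfection of a mouse sequence into human cells. The labels name antibodies against PXR, HA and IgG without saying which served each library. Of 20 colon epithelial markers, 17 had a peak in their span, among them EPCAM, CDX2, CDH17 and MUC2, against 1 of 8 hepatocyte, 0 of 6 blood and immune and 1 of 6 fibroblast and endothelial markers.

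In eCLIP, RNA fixed to a protein by UV light is trimmed, precipitated with the protein and sequenced, so a peak marks where RNA fragments gathered. RNA from outside annotated genes is known from several sources. Transcription often runs on past the cleavage site at the downstream end of a gene, many promoters also start short RNAs on the strand that leads away from the gene, and precursors of tRNAs and other small RNAs carry leaders and trailers that lie beyond the mature RNA. Some long noncoding RNAs are made in few cell types and are missing from gene tables. PXR, a nuclear receptor, is best known as a drug-sensing transcription factor that binds DNA.

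The data were 1 peak list for the immunoprecipitate, with the authors' fold, −log10 p and −log10 q for each peak. The list names no replicate, so the values carry no replicate error and no groups could be tested. Values of the 501 peaks are set beside those of the 20406 peaks inside genes as descriptions. Peaks are not replicates, and their intervals cover counting error only. The authors' fold divides the summit's reads by a background, which was the mean over the surrounding 10 kb or, where that was lower, a level common to the strand. The 10 kb background includes the summit's own reads, so the fold does not measure enrichment over the input library. From that fold and its −log10 p the whole number of reads at each summit was worked out. More RNA at a place and more protein bound per RNA cannot be told apart in these values.

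A few of the sequences under these peaks can be read from RefSeq's tables of promoters (250 bases before to 50 bases after a gene start) and of microRNAs. Those shown include the deepest peaks within 10 kb before the start of a gene of known strand, on the opposite strand and on its own. The rest belong to a peak at the downstream end of a ribosomal protein gene and to peaks that overlap annotated small RNAs. In the promoter windows, capitals mark the bases under the peak. The window of MARCHF9, a ubiquitin ligase gene, spans chr12:57754853-57755152 (GRCh38.p14, plus strand), and the peak on it lies on the minus strand with 837 reads. The window of FAM83E, chr19:48615027-48615326 (minus strand), is shown because it holds the last 117 bases of a minus-strand peak of 171 reads that begins in RPL18 and runs past its end. The window of MIR663AHG, the host gene of miR-663a, chr20:26209184-26209483 (minus strand), lies whole under a minus-strand peak of 118 reads. The origin of those reads is uncertain, as described below with the ribosomal neighbours.
MARCHF9: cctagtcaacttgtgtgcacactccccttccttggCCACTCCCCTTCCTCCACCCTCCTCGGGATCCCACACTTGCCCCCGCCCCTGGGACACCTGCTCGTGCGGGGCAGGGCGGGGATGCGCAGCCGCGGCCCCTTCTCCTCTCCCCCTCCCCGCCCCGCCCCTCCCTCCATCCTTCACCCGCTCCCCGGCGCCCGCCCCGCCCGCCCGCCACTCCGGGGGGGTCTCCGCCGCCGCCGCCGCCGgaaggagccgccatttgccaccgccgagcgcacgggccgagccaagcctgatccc
FAM83E: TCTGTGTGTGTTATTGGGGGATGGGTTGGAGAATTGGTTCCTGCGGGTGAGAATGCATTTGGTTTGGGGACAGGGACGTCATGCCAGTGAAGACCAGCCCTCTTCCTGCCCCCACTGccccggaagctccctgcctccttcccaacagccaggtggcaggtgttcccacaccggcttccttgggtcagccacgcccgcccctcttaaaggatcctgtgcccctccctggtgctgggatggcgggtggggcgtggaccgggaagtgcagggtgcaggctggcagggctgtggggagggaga
MIR663AHG: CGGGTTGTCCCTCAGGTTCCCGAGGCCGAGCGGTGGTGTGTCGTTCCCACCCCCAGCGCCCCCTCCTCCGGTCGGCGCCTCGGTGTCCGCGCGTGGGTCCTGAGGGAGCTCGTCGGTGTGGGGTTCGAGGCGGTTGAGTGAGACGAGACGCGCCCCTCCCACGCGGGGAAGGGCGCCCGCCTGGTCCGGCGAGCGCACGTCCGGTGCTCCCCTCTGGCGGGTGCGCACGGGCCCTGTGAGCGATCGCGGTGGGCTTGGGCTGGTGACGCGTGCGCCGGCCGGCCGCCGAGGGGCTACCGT

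In the MIR5100 hairpin, chr10:42997563-42997681 (plus strand), capitals mark the 48 bases under a plus-strand peak of 68 reads, whose upstream edge lay 4 bases inside the mature microRNA. In the mature microRNAs, capitals mark the seed, bases 2 to 8. The MIR7977 hairpin, chr3:176515103-176515151 (plus strand), lay whole under a plus-strand peak of 18 reads that began 2 bases before it. Mature miR-3648, chr21:8987026-8987046 (plus strand), lay whole under a plus-strand peak of 103 reads. The seeds of these microRNAs differ from each other.
MIR5100 hairpin: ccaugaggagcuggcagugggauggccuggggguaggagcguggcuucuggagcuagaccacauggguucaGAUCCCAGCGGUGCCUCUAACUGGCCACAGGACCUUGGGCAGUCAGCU
hsa-miR-5100: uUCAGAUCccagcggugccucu
hsa-miR-7977: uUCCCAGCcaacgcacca
hsa-miR-3648: aGCCGCGGggaucgccgaggg

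Peaks outside genes were narrow, shallow and isolated more often than peaks inside genes. They had a median width of 201 bases (quartiles 200 and 235), against 265 bases inside genes. No peak was narrower than 200 bases. The counts of reads per 10 kb given here take each read to cover 200 bases. Whether that width is also a minimum of the caller was not tested. A peak of at most 202 bases is called read width here. Start positions of single reads were not analysed, so this width does not show that its reads share a start. Of the 501 peaks, 291 were of read width (58.1%, Wilson interval 53.7 to 62.3%), against 3716 inside genes (18.2%) and 19.2% of all peaks on these chromosomes. The median summit held 12 reads (interval of the median 11 to 13), against 21 inside genes, and 184 of the 501 summits held under 10 reads (36.7%), against 9.50% inside genes. At that depth counting error is wide: the exact Poisson interval of 8 reads is 3.45 to 15.8.

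The fold pointed the other way. The median fold was 6.96 (interval of the median 6.47 to 7.28) against 5.97 inside genes, and 154 of the 501 peaks had a fold of 10 or more (30.7%, Wilson interval 26.9 to 34.9%), against 12.3% inside genes and 12.7% of all peaks. At a fold of 20 or more were 44 (8.78%), against 1.51% of all peaks. The background differed as well: its median was 22 reads per 10 kb outside genes and 123 inside. In 147 peaks (29.3%, Wilson interval 25.5 to 33.5%) it lay at the common level of the strand, which 2.98% of all peaks did, and so the 10 kb around them held fewer reads than that level. All reads of the background lay at the summit in 66 peaks (13.2%, Wilson interval 10.5 to 16.4%), against 0.608% inside genes and 0.909% of all peaks. Peaks at the common level stay in these totals, although the reads of their own 10 kb are not known. Of the 66, 1 is such a peak. Of the 354 peaks with a 10 kb background, 65 held all its reads at the summit (18.4%, Wilson interval 14.7 to 22.7%). The background includes the summit itself, so the fold has a ceiling, and no fold in the list passed 49.8. Where all background reads lie at the summit, the fold follows from their number alone. A high fold in a thin background needs few reads. The 154 peaks at a fold of 10 or more include 99 of the 291 of read width (34.0%) and 55 of the 210 wider ones (26.2%).

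**Figure D1:**
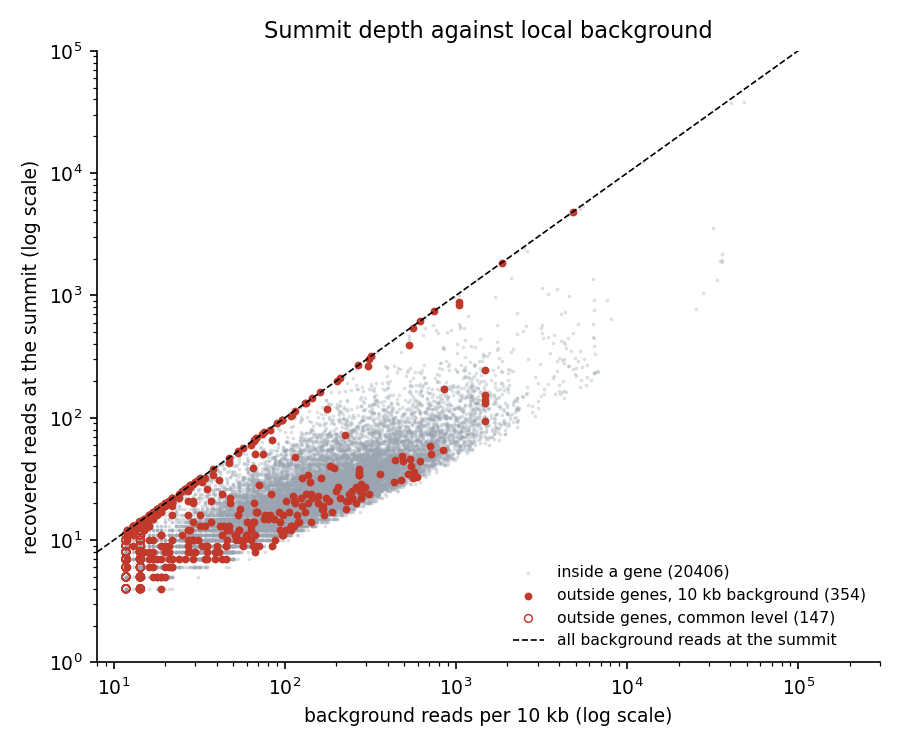
Recovered reads at the summit of each peak (vertical axis, log scale) against the background in reads per 10 kb (horizontal axis, log scale), for 20406 peaks inside genes (grey), 354 outside genes with a 10 kb background (filled red) and 147 outside genes at the common level (open red). Peaks on the dashed line hold all their background reads at the summit, as did 65 of the 354 outside genes with a 10 kb background.

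The 501 peaks split into 2 shapes that lay at different distances from genes. The 291 of read width had a median of 10 reads and lay at a median of 6927 bases from the nearest gene. The 210 wider ones had a median of 16 reads, a median width of 255 bases and a median distance of 1335 bases. Median folds were close, at 7.0 and 6.82. Another peak on the same strand lay within 10 kb of 63 of the 210 wider peaks (Wilson interval 24.2 to 36.5%) and of 29 of the 291 of read width (9.97%, 7.03 to 13.9%), against 54.2% of peaks inside genes. The part of PCR copies in these counts was not tested.

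Of the 501 peaks, 261 lay within 5 kb of a gene (52.1%). This share was 45.1% with no base of the peak allowed in a gene and 32.9% with coding, lncRNA and small RNA genes alone. The median distance from the centre to the nearest gene was 4369 bases, with quartiles of 411 and 20714. Under 1 kb lay 177 peaks (35.3%), from 1 to 5 kb 84 (16.8%), from 5 to 50 kb 191 (38.1%) and over 50 kb 49 (9.78%). The share of read width was 45.2% under 1 kb (Wilson interval 38 to 52.6%), 57.1% from 1 to 5 kb, 66.5% from 5 to 50 kb and 73.5% over 50 kb (59.7 to 83.8%). The share with all background reads at the summit was 6.78% under 1 kb, 7.14% from 1 to 5 kb, 16.2% from 5 to 50 kb and 34.7% over 50 kb (22.9 to 48.7%). Peaks at the common level stay in these totals, and the shares by distance were not worked out without them. Median reads stayed between 12 and 15 in all 4 classes. The intervals of the nearest and the farthest class do not overlap in either share. Those of neighbouring classes overlap, except that the last share lies higher over 50 kb than from 5 to 50 kb (11.7 to 22.1%). The share at a fold of 10 or more ran from 27.4% to 44.9%, and its intervals overlap in all 4 classes.

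**Figure D2:**
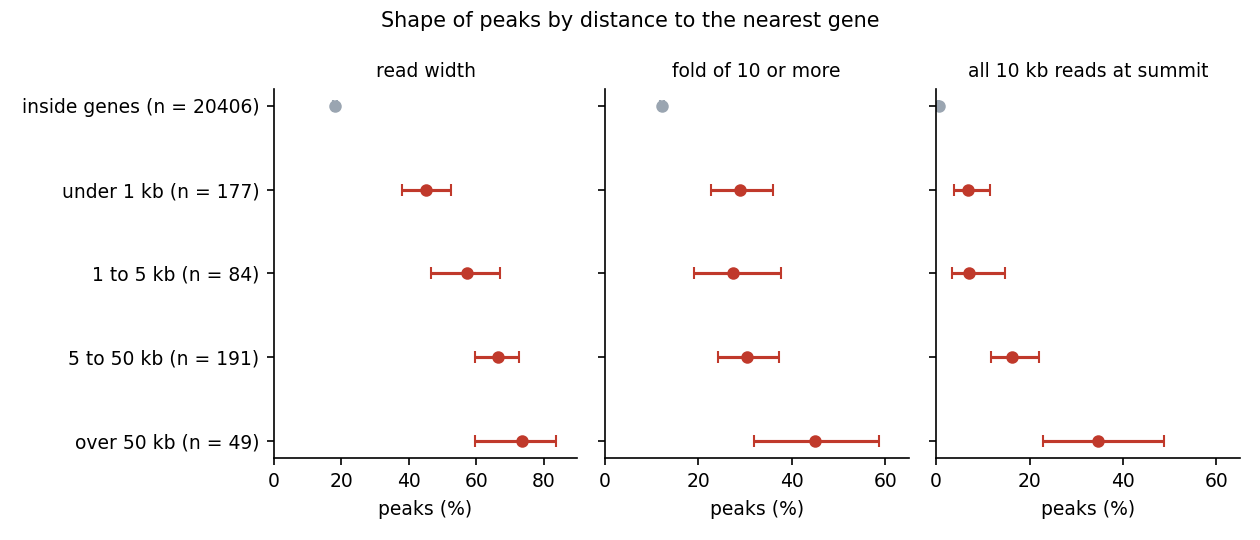
Share of peaks (%, with 95% Wilson intervals as bars) that were of read width, had a fold of 10 or more, or held all reads of their background at the summit, for peaks inside genes (grey) and outside genes by distance to the nearest gene (red). The share of read width goes from 45.2% under 1 kb to 73.5% over 50 kb, and was 18.2% inside genes. Peaks at the common level stay in all totals, although the reads of their own 10 kb are not known.

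Where the centre lay outside a gene, the peak itself could still reach into it. Of the 501 peaks, 64 had some base in a gene. In 44 of these the 5′ edge, the end of the peak where its reads begin if the caller extended them along their strand, lay in the gene, and in 18 the 3′ edge did. Among the 44 were 26 of read width, while 58.1% of the 501 were. The closest peaks on either side of the boundary show the rule: the centre of a plus-strand peak of 39 reads lay 1 base outside TAF5L, for a subunit of transcription complexes, one of 22 reads lay 2 bases past HAX1 and one of 10 reads 4 bases from VPS37C, while a plus-strand peak of 13 reads lay 1 base inside ZNF236, one of 32 reads 1 base inside ERGIC3 and one of 12 reads 2 bases inside PSME1.

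Strand relative to the nearest gene was read from RefSeq's promoter and microRNA tables, which give it for 49.0% of genes and for the nearest gene of 259 of the 501 peaks. Within 10 kb of such a gene lay 168 peaks. Past its downstream end, 44 of 61 were on its strand (72.1%, Wilson interval 59.8 to 81.8%). Before its upstream end, 62 of 107 were on the opposite strand (57.9%, 48.5 to 66.9%). For comparison, of 14279 peaks inside a single gene of known strand, 98.1% were on its strand. Under 1 kb the downstream split was 22 against 5 and the upstream split 32 on the gene's strand against 47 opposite. Over 10 kb away, 25 downstream peaks were on the strand of the gene and 25 opposite. Upstream at that distance, 24 of 41 were opposite (58.5%, 43.4 to 72.2%). The upstream share on the opposite strand was thus about the same near genes and far from them. With the 5′ edge in place of the centre, a choice made after seeing the data, the share of peaks within 10 kb that lay past a downstream end on the gene's strand was 13.6% in place of 26.2%.

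**Figure D3:**
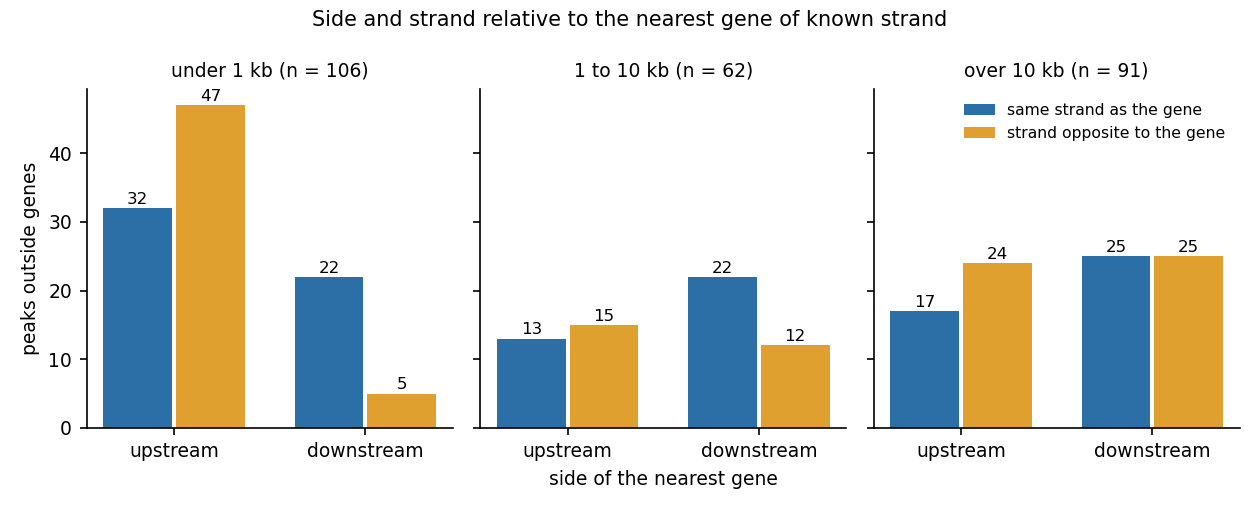
Number of peaks outside genes (vertical axis) by side of the nearest gene of known strand (horizontal axis) and by strand (blue, the strand of the gene; orange, the opposite strand), for 3 ranges of distance. Under 1 kb the counts are 32 and 47 upstream and 22 and 5 downstream. Over 10 kb they are 17 and 24 upstream and 25 and 25 downstream.

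The 44 peaks past a downstream end on the gene's strand lay beside 28 coding, 12 lncRNA and 4 small RNA genes, at a median of 984.5 bases. A peak on the gene's own strand lay in the gene beside 21 of them (47.7%, Wilson interval 33.8 to 62.1%). That share was 17.6% (6.19 to 41.0%) beside the 17 downstream peaks on the opposite strand, 31.1% (19.5 to 45.7%) beside the 45 upstream peaks on the gene's strand and 59.7% (47.3 to 71.0%) beside the 62 upstream peaks on the opposite strand. Over all genes, 41.7% of coding and 6.26% of lncRNA genes held a peak on either strand, and the 4 groups differ in their share of coding genes. The deepest downstream peak on the strand of a coding gene was at RPL18, a large-subunit ribosomal protein gene on chromosome 19: a minus-strand peak, chr19:48615210-48615436, with 171 reads (Poisson interval 146 to 199) of 847 in the 10 kb, whose centre lay 8 bases past the gene and whose sequence is partly in the FAM83E window above. RPL39 had 14 reads on the minus strand 45 bases past its end, and HAX1, STX4, UBL5 and NDUFA1 had 22, 10, 17 and 11 reads on the plus strand, 2 to 23 bases past theirs. In all 6 the 5′ edge lay in the gene, so these peaks begin inside it and run across its end. Farther out, EEF1A1, for the main translation elongation factor, had a minus-strand peak of 46 reads 357 bases past its end, with a fold of 4.01, and MREG, for melanoregulin, had 51 reads at 1678 bases with a fold of 20.8. Past LOC105373928, a noncoding gene on chromosome 2, lay a plus-strand peak of 546 reads (501 to 594) at 1404 bases, of read width and with a fold of 45.0.

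Replication-dependent histone genes, whose short messages end in a stem-loop and carry no poly(A) tail, were neighbours of 4 of the 309 peaks within 10 kb of a gene (1.29%, while these genes make up 0.118% of all genes). All 4 lay on the gene's strand and past its downstream end, at 18 bases for H2AC14, 24 for H2BC14 and 59 each for H4C11 and H4C12. They held 51, 21, 34 and 21 reads at folds of 22.2, 7.24, 19.9 and 12.6. All 4 lay within 17086 bases on chromosome 6, and the 5′ edge of each lay in its gene. Histone genes resemble each other closely, and the copy of origin of a read is uncertain.

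The 62 peaks before an upstream end on the opposite strand lay beside 51 coding and 11 lncRNA genes, at a median of 424 bases. They were shallow, with a median of 9 reads, and 33 of the 62 held under 10. The deepest was the minus-strand peak at MARCHF9 on the plus strand, chr12:57754888-57755097, whose 210 bases hold 80.0% G and C in the window shown above. It held 837 reads (781 to 896) of 1042 in the 10 kb, at a fold of 38.4, and its centre lay 110 bases before the gene. GPR153, an orphan receptor gene on chromosome 1, had a plus-strand peak 631 bases before its start, of read width and with all 268 reads of the 10 kb. MYOCOS had 210 reads on the minus strand, also all of those in the 10 kb. Most of the rest were of a few reads, as at SMAP1 and PTPN18 with 5 each and GSK3B, for a kinase of Wnt signalling, with 8.

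The 45 peaks before an upstream end on the gene's own strand were wider, with a median of 214 bases, and had a median of 13 reads. They included PHPT1, for a histidine phosphatase, with a peak of 511 bases and 54 reads at a fold of 3.09, and SPRED1, for an inhibitor of Ras signalling, with 933 bases and 39 reads at 8.20. In each of these the 3′ edge lay in the gene, so the peak ran across the annotated start. The 17 peaks past a downstream end on the opposite strand had a median of 12 reads and included B4GALNT4 with 43 reads at a fold of 22.7.

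Small noncoding RNA genes were the nearest gene within 10 kb of 28 peaks (9.06%, Wilson interval 6.34 to 12.8%), and make up 6.52% of genes. A list of structured noncoding RNAs, with snRNA, snoRNA, microRNA and vault RNA genes, was nearest to 14 (4.53%). That is near its share of genes, 4.31%. The tRNA genes, which are not in that list, were nearest to 8 (2.59%, against 0.750% of genes). Coding genes were nearest to 154 (49.8%, against 33.8% of genes), lncRNA genes to 72 (23.3%, against 30.8%) and pseudogenes to 55 (17.8%, against 28.2%). Of the 28 beside small RNA genes, 6 were of read width, against 82 of the 154 beside coding genes. Of the small RNA neighbours 0 held a peak centre of its own, and of all small RNA genes 0.831% did. Of the coding neighbours, 97 of 154 did (63.0%), against 41.7% of all coding genes.

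All 8 peaks beside tRNA genes had their 5′ edge toward the tRNA and ran away from it. The tRNAs, which carry amino acids to the ribosome, are cut out of longer precursors with a trailer behind the mature RNA. The gap between the tRNA and the 5′ edge was 1 base at TRC-GCA2-4, 3 at TRT-CGT4-1, 13 at TRG-TCC2-6, 18 at TRL-CAG2-1, 43 at TRR-CCT3-1, 52 at TRI-AAT2-1 and 72 at TRP-TGG1-1, and at TRG-CCC2-1 the peak began inside the tRNA. The deepest was at TRG-TCC2-6 on chromosome 1, chr1:161531198-161531425, with 106 reads (86.8 to 128) of 110 in the 10 kb at a fold of 33.4. The other 7 held 10 to 34 reads, and 6 of the 8 had a fold of 10 or more, against 30.7% of the 501. None was of read width. The strand of tRNA genes was not used here, so the peaks show direction away from the tRNA but not whether they share its strand. By the same measure, 77 of 108 peaks within 1 kb of a coding gene had their 5′ edge toward it (71.3%, Wilson interval 62.1 to 79.0%), and 105 of 192 over 10 kb from any gene (54.7%, 47.6 to 61.6%). The tRNA group was picked after its values were seen.

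**Figure D4:**
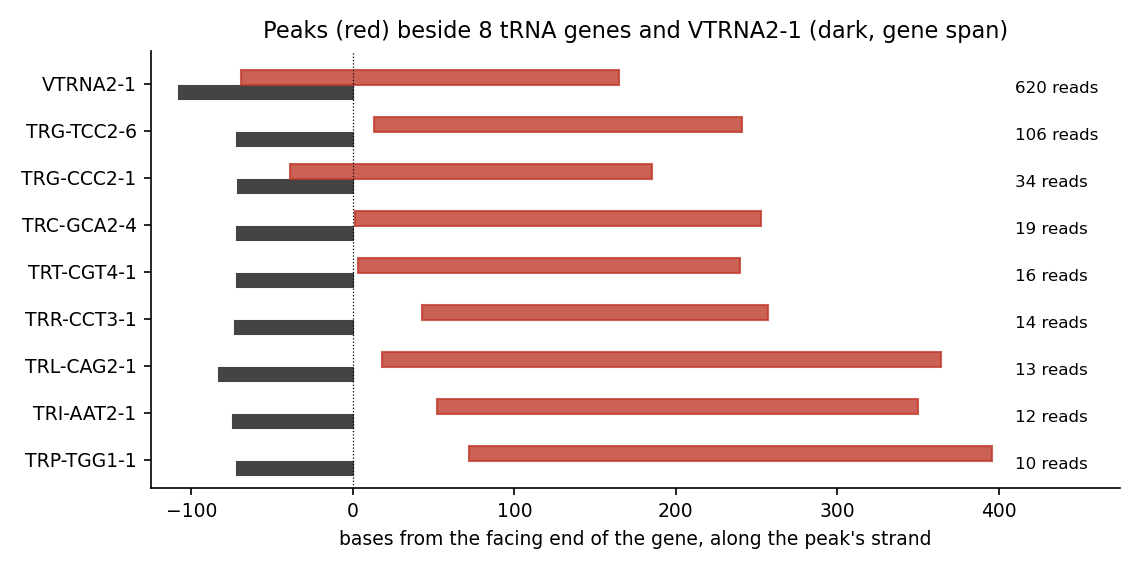
Position of the peaks (red) beside 8 tRNA genes and VTRNA2-1, with the gene span in dark grey, in bases along the strand of the peak (horizontal axis, 0 at the end of the gene that faces the peak). Each peak runs away from its gene, and 7 of the 8 beside tRNA genes begin 1 to 72 bases beyond it.

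VTRNA2-1, a short noncoding RNA related to vault RNA, had the deepest peak beside a small RNA gene. On the minus strand of chromosome 5, chr5:136080326-136080559, it held 620 reads (572 to 671), which were all of the reads in the 10 kb, at a fold of 46.3. Its 5′ edge lay in the gene and its centre 48 bases outside. Among the spliceosomal RNA genes, peaks of 14 reads or fewer began 56 bases beyond RNU6-2, 95 beyond RNU12, 150 beyond RNVU1-27, 201 beyond RNU5D-1 and 211 beyond RNU5B-1, each with the 5′ edge toward the gene. Of the other annotated snRNA genes, LOC124904137 had a peak of 9 reads at a gap of 589 bases with its 3′ edge toward the gene, and LOC124904147 had 19 reads at a gap of 6692 bases. SNAR-G2 had 22 reads, all of those in its 10 kb, from a peak that began inside it. The peaks at MIR5100 and MIR7977, shown above, held 68 and 18 reads, again all of those in their 10 kb.

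Some peaks lay beside pseudogenes of ribosomal RNA. On the short arm of chromosome 21, a plus-strand peak, chr21:8252955-8253256, held 267 reads (236 to 301) at a fold of 37.7, 736 bases from RNA18SP5, a pseudogene of 18S rRNA. The peak over miR-3648 lay on the same arm with 103 reads at a fold of 32.9. RNA5-8SP2, another rRNA pseudogene, on chromosome 16, had 66 reads at 33 bases and a fold of 25.0. The list of ribosomal neighbours also held MIR663AHG on chromosome 20, whose peak, shown above, had 118 reads at a fold of 26.3. Near MTRNR2L8, a nuclear copy of mitochondrial RNR2 on chromosome 11, lay minus-strand peaks of 23 and 48 reads, at 17 and 149 bases. Ribosomal and mitochondrial RNA have near-identical copies in the genome, and no source used here says how reads that fit several places were placed, so the origin of these reads is uncertain. The lists of ribosomal and mitochondrial neighbours were drawn up after the values were seen. Of the 309 peaks within 10 kb of a gene, the ribosomal list held 4 (1.29%, against 0.96% of genes). The list of pseudogenes like mitochondrial genes held 3 (0.971%, against 0.844% of genes). Both shares are near those of the genes.

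A few deep peaks held much of the depth outside genes. The 10 with the most reads held 51.3% of the 22052 summit reads of all 501. First was a minus-strand peak on chromosome 15, chr15:45228535-45228734, of read width, with 4828 reads (4693 to 4966) of 4831 in the 10 kb, 12498 bases from the pseudogene H3P39. Next was the minus-strand peak at LGALS1, for galectin-1, chr22:37675484-37675683, with 1840 reads of 1846, whose 5′ edge lay inside the gene. On chromosome 2, chr2:117012450-117012669, a plus-strand peak held 749 of 749 reads, 11281 bases from NMTRL-TAA2-1, a pseudogene of a mitochondrial leucine tRNA, and another at chr2:71906840-71907040 held 320 of 320 on the minus strand, 77201 bases from RPS20P10. RefSeq's tables used here give no strand for LGALS1. Of the 10 peaks with most reads, 4 were of read width, against 58.1% of the 501. The last of the 10 were close in depth to the next peaks, such as GPR153 with 268 reads.

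Few peaks outside genes had others near them, but 3 clusters far from genes held 4 to 6 peaks on the same strand. Joined at gaps of up to 10 kb, 59 of the 501 peaks fell into 24 clusters, 20 of them of 2 peaks, and 442 peaks stood alone (88.2%). The deepest cluster lay on the minus strand of chromosome X from 4541845 to 4545343, 82114 bases from the nearest gene, LOC101928201. Its 5 peaks held 94 to 248 reads, with up to 1484 reads in the 10 kb, widths of 201 to 516 bases and folds of 3.10 to 8.16. On chromosome 13, from 90832994 to 90853433, 6 minus-strand peaks held 15 to 25 reads at folds of 3.42 to 6.15, at least 27043 bases from LOC105370311. On chromosome 5, from 136541002 to 136544900, 4 minus-strand peaks held 25 to 36 reads at folds of 4.01 to 5.73, at least 31481 bases from LOC124901076. The Poisson intervals of the summits overlap within the clusters on chromosomes 13 and 5. On chromosome X the peak of 248 reads (218 to 281) stood above the other 4. All 15 peaks of the 3 clusters lay on the minus strand. The remaining cluster of 4 was the histone group described above.

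**Figure D5:**
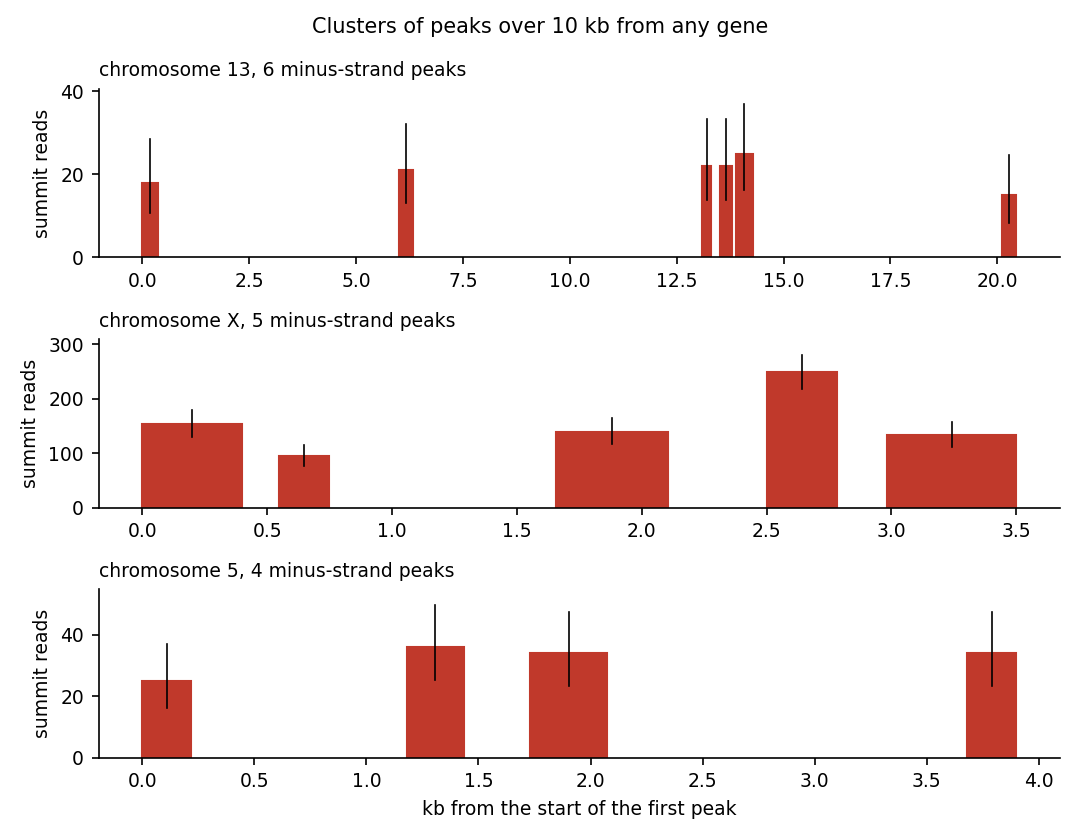
Reads at the summit (vertical axis, with exact 95% Poisson intervals as lines) of the peaks in 3 clusters over 10 kb from any gene, against distance from the start of the first peak in kb (horizontal axis); each bar has the width of its peak. The chromosome X cluster holds 94 to 248 reads a summit, and those on chromosomes 13 and 5 hold 15 to 36.

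Peaks on opposite strands at 1 place were rare. With centres within 500 bases, 4 pairs joined 8 of the 501 peaks (1.60%), and 20 of the 501 had an opposite-strand partner anywhere in the list (3.99%, Wilson interval 2.60 to 6.09%), against 1.28% of all peaks. The deepest pair lay on chromosome 2, with 396 reads (358 to 437) on the plus strand at chr2:32916250-32916704 and 877 (820 to 937) on the minus strand at chr2:32916086-32916583, at folds of 34.1 and 40.2, over 10 kb from LOC100271832. Near DUX4L20 on chromosome 10, 145 minus-strand reads faced 8 on the plus strand. The others, on chromosomes 3 and 6, held 8 to 17 reads. The pair on chromosome 3, at chr3:93470389-93470837, lay 373149 bases from the nearest gene, and the peak farthest from any, on chromosome 5 at chr5:49600365-49600734, held 8 reads 795642 bases from EMB. Of the 10 farthest peaks, 7 were of read width, against 73.5% of all 49 over 50 kb from a gene. The depth of the 10 ran from 5 to 113 reads.

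Promoter windows touched by peaks outside genes were rich in G and C. In all, 47 of the 501 peaks overlapped 54 windows, 24 with the peak on the strand of the gene and 30 with it opposite. The median G and C content of these windows was 70.3%, against 58.7% over 34961 windows on the same chromosomes. It was taken over whole windows, also where a peak covered only part of one, and was not summarised for the peak bases alone. The poly(A) signal AATAAA, looked for on both strands, was in 0 of the 54 windows (Wilson interval up to 6.64%) and in 17.3% of all windows. The letters AGTTCA and AGGTCA, single sites that PXR and related receptors bind in DNA, were in 3 windows (5.56%, 1.91 to 15.1%) and 6 windows (11.1%, 5.19 to 22.2%), against 10.5% and 13.8% of all. ATTAAA was in 1 window (1.85%, against 12.2%), a run of 8 A in 2 (3.70%, against 5.56%), and GGACT, a form of the site of the RNA mark m6A, in 29 (53.7%, 40.6 to 66.3%, against 44.1%). Base composition was not matched, so these shares describe the windows and not any binding.

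The 501 peaks lay on all 23 chromosomes, with 10 or fewer on chromosomes 18, 21 and 22. As a share of all peaks they ran from 1.08% of 1581 on chromosome 19, which is dense in genes, to 4.70% of 553 on chromosome X, and stood at 4.10% of 390 on chromosome 13. On the plus strand lay 234 (46.7%), against 52.4% of peaks inside genes. With each peak counted for its nearest gene alone, no gene had more than 2 of the peaks within 10 kb. By that count 11 genes had 2, among them CCDC200, LINC01000, FAR2P1, DUXAP8, ARHGEF2-AS1 and LNCRNA-ATB. CDH17, an intestinal cadherin, was the colon marker with such a neighbour, a peak of 12 reads at 6526 bases. Zinc finger genes were neighbours of 7 peaks (2.27%, against 0.875% of genes), with folds of 3.15 to 8.90.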

How the data were processed

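One peak list of eCLIP from LS174T cells was analysed. Per the submitters' processing notes, the authors used cutadapt, BWA, MACS2 and hg38, with no versions or settings. Whether replicates were pooled was not stated. The deposited fold is a ratio of summit reads to local background, the deposited −log10 p and −log10 q belong to each peak, the deposited score is 10 times the −log10 q cut to a whole number, and the deposited offset gives the summit. Peaks were called apart on each strand, per the deposited peak names.

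Summit reads k and background b were solved from fold = (k + 1) / (b + 1) and the Poisson p. This fitted 21028 of 21031 peaks within 0.0001 and was tested on simulated data. Genes, strands and sequences came from RefSeq GRCh38.p14 tables (59792 genes). Python 3.11.15, numpy 2.4.6, pandas 2.3.3 and scipy 1.17.1 gave Wilson and exact Poisson intervals (95%). Named peaks were the 10 highest in fold, in reads and in distance, the largest clusters, genes with 2 peaks and the boundary peaks; other examples were picked after their values were seen. One of the named peaks is not reported here. Members and lists were chosen with earlier results of these data known. Alternatives varied the position tested, overlap, threshold, width, gene classes, chromosomes and distances.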

Additional observations from a re-analysis of the deposited data

Results flagged for a closer look

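Outside the chromosomes compared, 98 peaks lay on unplaced and alternate sequences, where the gene table could not be applied. The deepest of them held 203980 reads. They have no control value beside them and enter no count of peaks outside genes.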

How the results depend on the processing

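Under the alternatives, 36 values stayed within a tolerance of the reported one and 20 moved; the tolerance was the 95% interval of the reported value for medians and shares, and 1.5 times either way for the number of peaks, pairs and clusters. The 36 included all with the deposited summit or with chromosome Y added, 4 opposite-strand pairs at 200 and at 1000 bases, and 16 and 29 clusters at gaps of 5 and 50 kb. With no base allowed in a gene, 45.1% lay within 5 kb of a gene. At a −log10 q of at least 10 there were 218 peaks, with a median fold of 12.4, a median of 21 reads and 70.6% at a fold of 10 or more. Without read-width peaks there were 210, with a median of 16 reads, 63.3% within 5 kb and 26.2% at a fold of 10 or more; the read-width share has no value there. With coding, lncRNA and small RNA genes alone there were 1101 peaks, with a median fold of 7.38, 32.9% within 5 kb and 39.1% of read width. With the 5′ edge in place of the centre, chosen after seeing the data, 58.8% lay within 5 kb, 49.0% were of read width and 13.6% lay past a downstream end on its strand. Counted within 1 kb and 10 kb, 35.3% and 61.7% lay near a gene. Allowing 10 and 20 bases over the narrowest width, 66.1% and 71.1% were of read width. Beyond what each setting removes or adds, the cause was not tested. No paired analysis was possible because the list holds no values of single libraries and the input and the immunoprecipitate share fewer than 2 replicate numbers, and no replicate could be left out. Shallow summits limit the rest, since 184 of the 501 held under 10 reads.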
